A study of Arabidopsis thaliana with 48 samples.

Results

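The Polycomb group genes described here are 10 Arabidopsis thaliana loci, chosen by locus identifier from the 32548 loci in the deposited tables. They are CLF (AT2G23380, chromosome 2), SWN (AT4G02020, chromosome 4), FIE (AT3G20740, chromosome 3), MSI1 (AT5G58230, chromosome 5), EMF2 (AT5G51230, chromosome 5), VRN2 (AT4G16845, chromosome 4), VRN5 (AT3G24440, chromosome 3), VIN3 (AT5G57380, chromosome 5), EMF1 (AT5G11530, chromosome 5) and LHP1 (AT5G17690, chromosome 5, listed as TFL2 by RefSeq). All 10 passed the filter on low values in both tables. Their levels were not a criterion, but earlier results of these data were known when the members were chosen.

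Polycomb proteins keep developmental genes silent. In plants, Polycomb repressive complex 2 places the trimethyl mark on lysine 27 of histone H3 (H3K27me3). It holds a methyltransferase (CLF or SWN), a protein of the Su(z)12 type (EMF2 or VRN2) and the WD-repeat proteins FIE and MSI1, and the PHD-finger proteins VRN5 and VIN3 join it during the response to cold. EMF1 and the chromodomain protein LHP1 work at marked genes together with the RING-finger proteins of Polycomb repressive complex 1, which place ubiquitin on histone H2A. Loss of CLF, EMF1, EMF2 or LHP1 is known for early flowering and floral genes that come on out of place, whereas VRN2, VRN5 and VIN3 are needed for the response to cold.

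The study profiled RNA of whole seedlings by RNA sequencing in mutants of the chromatin remodeler INO80 and of other chromatin genes, and asked which functions of INO80 do not need its ATPase part. The genotypes were wild type (Col-0), the homozygous mutants ino80, arp5, nfrkb1/2/3 (a triple mutant), uch1/2 (a double mutant) and atx4/5;jmj24 (a triple mutant), and 3 lines that carry a transgene in the ino80 mutant: full-length INO80 (INO80FL), amino acids 1 to 550 (INO80N) and amino acids 335 to 1540 (INO80C). The promoter of the transgenes, the number of independent lines and the number of pooled seedlings are not given in the sources used here. Seedlings grew on plates for 11 days in long days (16 h light and 8 h dark) or for 14 days in short days (8 h light and 16 h dark), so day length and age change together. A first set of 36 libraries holds all 9 genotypes in both day lengths, and a second set of 12 libraries holds wild type, ino80, nfrkb1/2/3, uch1/2, atx4/5;jmj24 and INO80FL in short days. Each genotype has 2 libraries per day length and set, and nothing says whether they came from separate cultures, so the p-values measure the spread between libraries, which may be technical.

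Values are normalized read counts, and the sets were normalized apart and tested apart. Library totals ran from 18867187 to 22653356 in the first set and from 20080952 to 22921363 in the second, and duplicate libraries correlated at 0.988 to 0.992 over all genes. INO80 was lower in ino80 than in wild type (log2 difference −0.88 in long days, −1.16 and −0.76 in short days of the first and second set) and higher in each transgenic line (1.18 to 2.93). UCH2, UCH1, ATX4 and JMJ24 were lower in their mutants, whereas ATX5 was lower only in short days of the first set (−1.18, against −0.22 in long days and 0.28 in the second set). ARP5 went against its label: the libraries labelled arp5 held 5736 and 7460 normalized reads in long and short days against 314 and 346 in wild type. They are called "libraries labelled arp5" throughout. Wild-type harvests also differed in clock phase, with CCA1, a morning gene, at 2341 in long days, 17264 in short days of the first set and 44.1 in the second.

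In wild type, 9 of the 10 genes were clearly expressed and VIN3 was close to 0. Levels between genes are compared per kilobase of exon. In long days MSI1 stood highest at 379.6 ± 14.6 normalized reads per kilobase (SD, n = 2). SWN (292 ± 13.7) and VRN2 (291 ± 22.2) came next and overlapped, followed by EMF2 (219), FIE (210.4), LHP1 (166) and EMF1 (141). CLF (130.2) and VRN5 (123) overlapped below them, and VIN3, which is known to be induced by long cold, stood at 0.479. In short days the order was the same down to FIE. EMF1 (178) then overlapped LHP1 (175), VRN5 reached 153 and CLF was lowest of the expressed genes at 112. CLF (146), VRN5 (129.9) and EMF1 (129.8) overlapped at the lower end in the second set. VIN3 never exceeded 6.04 normalized reads in the 36 libraries of the first set (median 1.08) or 2.98 in the 12 of the second (median 0.978), too low for its changes to be read.

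**Figure D1:**
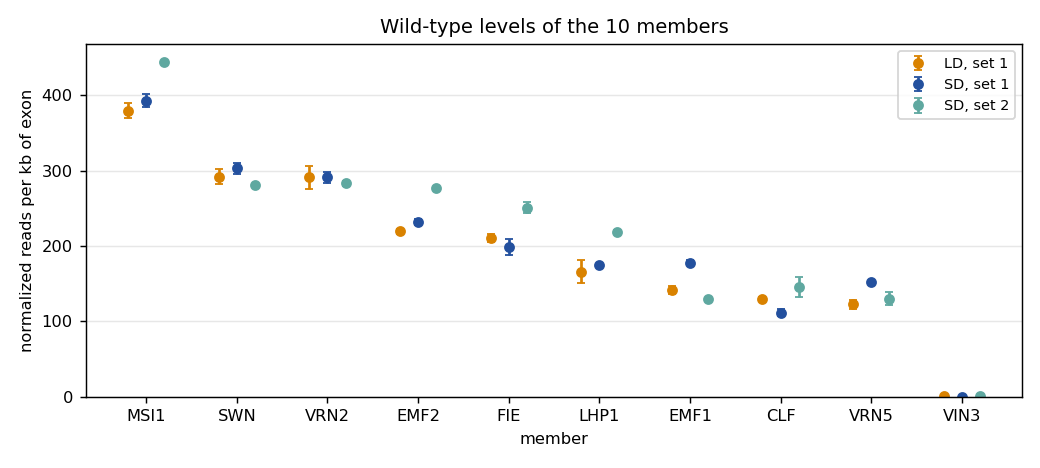
Level of the 10 Polycomb group genes in wild type, as normalized reads per kilobase of exon (vertical axis), with a point for the mean of 2 libraries and a bar from the lower to the higher one. Colours are long days (LD) and short days (SD) of the first set and short days of the second, which was normalized apart. MSI1 is highest in each, SWN and VRN2 overlap, and VIN3 lies near 0.

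Across the lines, the genes moved little. Against wild type, 20 of 80 gene-by-line comparisons passed in long days (limma, Benjamini-Hochberg adjusted p under 0.05), 4 higher and 16 lower, where 19.7% of all gene-by-line comparisons passed (8.93% higher, 10.8% lower). In short days of the first set 13 of 80 passed, 6 higher and 7 lower, against 25.9% of all comparisons (11.9% higher, 14.1% lower). The second set gave 2 of 50, both lower, against 12.2% (6.23% lower). Between INO80FL and wild type, 0.121%, 0.129% and 0.0532% of all genes passed, and no member did. Over all lines against wild type, 26.2%, 34.1% and 14.5% of the comparisons of genes with a mean of at least 100 normalized reads passed. The median absolute log2 difference of the 10 genes was 0.138 in long days and 0.0991 and 0.0921 in short days of the first and second set, against 0.209, 0.241 and 0.190 over all genes tested. With library totals set equal, 16 of 80 passed in long days (10 higher, 6 lower; 23% of all), 30 of 80 in short days (26 higher, 4 lower; 30.2% of all, 22.5% higher) and 1 of 50 in the second set (13.5% of all). With the values as deposited, the share called and the median size of the 10 genes were close to or below those of all genes, except for the share called in long days. That share lay between the 19.7% of all genes and the 26.2% of genes with a mean of at least 100. What follows is the pattern of single members. EMF1 gave 14 of the 35 calls, CLF 9, SWN 6, MSI1 3, VRN2 2 and LHP1 1, and EMF2, FIE, VRN5 and VIN3 gave none in 21 comparisons each. Within a set and day length, all lines are compared with the same 2 wild-type libraries. Statements below that line libraries lay above or below both wild-type libraries are descriptions. The share of all genes that separate in this way was not counted. For lines named because they passed, such separation is not separate evidence. With the libraries labelled arp5 left out of the fit, 15 comparisons passed in long days (2 higher, 13 lower) and 13 in short days of the first set. Their own comparisons with wild type are not in these counts, so the base is smaller than 80. The share of all genes in that fit was not counted.

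**Figure D2:**
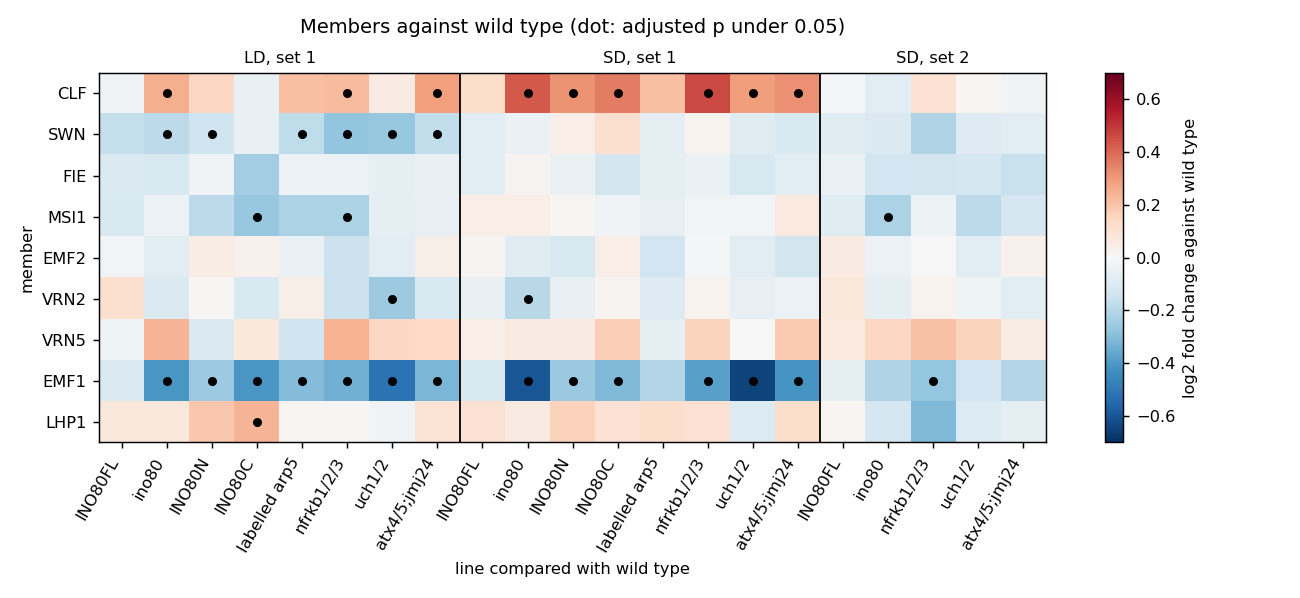
Log2 difference from wild type of 9 Polycomb group genes (rows, VIN3 left out for its low reads) in the 21 line comparisons (columns: long days, LD, and short days, SD, of the first set, and short days of the second set), as a colour from blue (lower) to red (higher); a dot marks an adjusted p under 0.05. EMF1 is below wild type in all 21 columns, and most of the CLF calls lie in short days of the first set.

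The methyltransferases CLF and SWN did not move together. CLF, which carries most of the H3K27 methyltransferase activity in leaves, was higher than wild type in 3 of 8 lines in long days and in 6 of 8 in short days of the first set, and in none of 5 in the second set. SWN, its partly redundant paralogue, was lower in 6 of 8 lines in long days and in none in short days of either set.

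In short days of the first set, wild type held 377 and 409 normalized reads of CLF. The nfrkb1/2/3 libraries held 549.9 and 531, and the ino80 libraries 519 and 539. The INO80C libraries held 477 and 531, those of INO80N 494 and 484, those of atx4/5;jmj24 474 and 508, and those of uch1/2 472 and 489. All 12 of these libraries lay above both wild-type libraries. The log2 differences were 0.46 for nfrkb1/2/3 (SE 0.079, adjusted p = 9.37e-05), 0.43 for ino80 (adjusted p = 1.72e-04), 0.36 for INO80C (0.00114), 0.32 for atx4/5;jmj24 (0.004), 0.32 for INO80N (0.00486) and 0.29 for uch1/2 (0.00516). The libraries labelled arp5 held 443 and 467 (0.21, adjusted p = 0.0722), and those of INO80FL 406 and 455, the lower of which lay just under the higher wild-type library (0.13, 95% interval −0.03 to 0.29). Leaving out the lower wild-type library (replicate 1) ended the calls of INO80N (0.26, adjusted p = 0.0692), atx4/5;jmj24 (0.26, 0.0585) and uch1/2 (0.23, 0.072), and leaving out replicate 2 of atx4/5;jmj24 also ended its call (0.27, 0.0581). Those of nfrkb1/2/3, ino80 and INO80C passed without any single library.

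In long days, wild type held 449 and 466 normalized reads of CLF. The calls were smaller: atx4/5;jmj24 with 531 and 588 (0.29, adjusted p = 0.0164), ino80 with 528 and 563 (0.25, 0.0187) and nfrkb1/2/3 with 519 and 548 (0.22, 0.0422). Each of these 3 calls was lost without replicate 1 of wild type (adjusted p of 0.117 to 0.196). Those of ino80 and atx4/5;jmj24 were also lost without their own replicate 2 (0.151 and 0.176), and that of nfrkb1/2/3 without any single library of the comparison. INO80C, one of the lines above wild type in short days, held 444 and 438, below both wild-type libraries (−0.05). In the second set, wild type spread from 466 to 558, and the 5 lines differed from it by −0.08 to 0.11 (SE 0.108). For ino80 the 95% interval there was −0.32 to 0.16, which does not reach the 0.43 of the first set. The difference between the sets was not tested.

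CLF overlaps 2 genes on the other strand in TAIR10.1, AT2G23370 and AT2G23390, and no source used here says that counting used strand, so reads from the overlaps cannot be told apart. AT2G23370 was higher in 3 lines in short days of the first set (0.37 to 0.47), namely ino80, nfrkb1/2/3 and INO80C, and in none in long days or the second set. AT2G23390 was lower in 7 of 8 lines in long days, in 1 of 8 in short days and in 1 of 5 in the second set. The part of these neighbours in the CLF values was not tested. SWN overlaps no annotated gene.

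SWN in long days held 961 and 1027 normalized reads in wild type. The lowest lines were nfrkb1/2/3 with 823 and 818 (log2 difference −0.28, SE 0.049, adjusted p = 1.89e-04) and uch1/2 with 803 and 847 (−0.27, 2.32e-04). Both stayed below wild type at adjusted p under 0.05 without any single library. The ino80 libraries held 892 and 860.3 (−0.18, 0.00759), the libraries labelled arp5 867 and 887 (−0.18, 0.0216), atx4/5;jmj24 865 and 896 (−0.17, 0.0198) and INO80N 912 and 893 (−0.14, 0.0425). These 4 calls were lost without the higher wild-type library, replicate 2 (log2 differences −0.13 to −0.09), and each also without 1 or both libraries of its own line. All 12 libraries of the 6 lines lay below both wild-type libraries. In short days the 8 lines of the first set lay between −0.11 and 0.11, with none called, and the 5 lines of the second set between −0.21 and −0.08, with none called. The SWN calls depended on the scaling. With library totals set equal, which moves the median of all genes by up to 0.148 in long days and 0.183 in short days, 1 of the 6 long-day calls held, with all 6 differences still below 0, and 4 lines were called higher in short days.

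The WD-repeat proteins changed in few comparisons. MSI1, a histone-binding subunit that Polycomb repressive complex 2 shares with chromatin assembly factor 1, was lower in 3 of 21 comparisons. In long days it held 634 and 600.4 in wild type, 513 and 511 in INO80C (−0.27, SE 0.072, adjusted p = 0.00758) and 489 and 572 in nfrkb1/2/3 (−0.22, 0.0257). In short days of the second set it held 725 and 722 in wild type and 624 and 615 in ino80 (−0.22, 0.0348). The line libraries lay below wild type in each of the 3 comparisons. The INO80C call was lost without wild-type replicate 1 (−0.23, 0.0825). That of nfrkb1/2/3 was lost without the same library (−0.18, 0.175) or without its own lower library (−0.11, 0.382), and that of ino80 without any single library of its comparison (adjusted p of 0.106 to 0.143). No line passed for MSI1 in short days of the first set, where ino80 held 678 and 643 against 652 and 625. With library totals set equal, 1 line was called lower in long days, 2 higher in short days and none in the second set. AT5G58240, which overlaps MSI1 on the other strand, was higher in INO80C (0.38), INO80N (0.35), ino80 (0.34) and uch1/2 (0.27) in long days and in ino80 (0.38) in the second set, which takes in 2 of the 3 comparisons in which MSI1 was lower. Its part in the MSI1 values was not tested. FIE, a core subunit and the homologue of fly Esc, spanned −0.24 to 0.02 with none of 21 called.

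The Su(z)12-type proteins EMF2, which represses flowering in seedlings, and VRN2, which acts after cold, were close to wild type. EMF2 spanned −0.15 to 0.06 and was never called. VRN2 was lower in uch1/2 in long days (505 and 459 against 543 and 605 in wild type, −0.25, SE 0.068, adjusted p = 0.00693). It was also lower in ino80 in short days of the first set (517 and 488 against 589 and 561, −0.19, adjusted p = 0.0307). The first call was lost without wild-type replicate 2 (−0.18, 0.133) or uch1/2 replicate 2 (−0.18, 0.108). The second was lost without either wild-type library (0.174 and 0.0522) or ino80 replicate 2 (−0.15, 0.201), and the second set gave none. The PHD-finger protein VRN5 spanned −0.14 to 0.24 with none called, and was above wild type in 17 of 21 comparisons.

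EMF1, a plant-specific protein needed to keep flowering genes silent, was lower in 14 of 21 comparisons and below wild type in all 21. In long days wild type held 676 and 629 normalized reads. The lowest line was uch1/2 with 466 and 444 (69.8% of wild type, log2 difference −0.52, SE 0.075, adjusted p = 1.54e-05). It was followed by INO80C with 518 and 466 (−0.41, 2.54e-04), ino80 with 503 and 481 (−0.41, 2.34e-04) and nfrkb1/2/3 with 521 and 514 (−0.33, 0.00172). The atx4/5;jmj24 libraries held 501 and 546 (−0.32, 0.00544), those labelled arp5 517 and 538 (−0.31, 0.0102) and those of INO80N 547 and 544 (−0.26, 0.0135). These 14 libraries lay below both wild-type libraries, whereas the INO80FL libraries, at 644 and 573, overlapped them (−0.10, 95% interval −0.26 to 0.05). Without wild-type replicate 1, the calls of atx4/5;jmj24 (−0.27, adjusted p = 0.0867), the libraries labelled arp5 (−0.25, 0.136) and INO80N (−0.21, 0.138) were lost. Each was also lost without 1 or both libraries of its own line (0.0532 to 0.101). The other 4 held without any single library.

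In short days of the first set EMF1 stood higher in wild type, at 804 and 839. The log2 difference was larger in size than in long days in ino80, uch1/2, nfrkb1/2/3 and atx4/5;jmj24 and smaller in INO80C and in the libraries labelled arp5, though none of these changes between day lengths passed its own test. The uch1/2 libraries held 524 and 524 (63.8% of wild type, −0.65, adjusted p = 4.8e-07), and the ino80 libraries 514 and 572 (66.1%, −0.60, 1.68e-06). Those of atx4/5;jmj24 held 617 and 617 (−0.41, 2.65e-04), nfrkb1/2/3 675 and 588 (−0.38, 3.8e-04), INO80C 674 and 652 (−0.31, 0.00258) and INO80N 715 and 659.8 (−0.26, 0.0136). The libraries labelled arp5 held 745 and 683 (−0.20, adjusted p = 0.0677) and those of INO80FL 769 and 748 (−0.11, 95% interval −0.27 to 0.04). All 16 line libraries lay below both wild-type libraries. The INO80N call was lost without wild-type replicate 2 (−0.23, 0.109) or its own replicate 2 (−0.20, 0.139).

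In the second set wild type held less EMF1, at 605 and 592, and the 5 lines lay between −0.27 and −0.06. Only nfrkb1/2/3 passed, with 520.2 and 472 (−0.27, SE 0.077, adjusted p = 0.0265), and that call was lost without either wild-type library (0.108 and 0.0724) or its own replicate 4 (0.154). The ino80 libraries held 496 and 538 (−0.21, adjusted p = 0.106), a log2 difference whose 95% interval of −0.38 to −0.04 excludes the −0.60 of the first set. That −0.60 is itself an estimate, and the EMF1 difference between the sets was not tested. The atx4/5;jmj24 libraries held 522 and 514 (−0.21) and those of uch1/2 522 and 572 (−0.13, 95% interval −0.31 to 0.04). All 10 line libraries of the second set lay below both wild-type libraries. With library totals set equal, 4 of the 7 long-day calls, 4 of the 6 short-day calls and not that of the second set were kept.

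In whole seedlings, fewer cells of a type and less RNA per cell cannot be told apart. The summed level of 6 green-tissue markers (LHCB1.1, LHCB1.2, LHCB2.2, LHCB3, LHCA1 and RBCS1A) moved with the lines. In long days it ran from 1005730 to 1046250 in wild type, from 952602 to 1050490 in INO80FL and from 616816 to 964030 in the other 7 lines. In short days of the first set it ran from 689176 to 725263 in wild type, from 684700 to 728602 in INO80FL and from 460743 to 642819 in the others. The second set had 658043 to 659414 in wild type, 621514 to 632051 in INO80FL and 413870 to 577347 in the other 4 lines. Summed root markers ran from 6295 to 6911 in wild type in short days of the first set. They lay above it in ino80 (7305 to 7743), uch1/2 (7210.3 to 8521) and atx4/5;jmj24 (7793 to 8034). Long-day wild type ran from 6397 to 6496, and the root sums lay above it in nfrkb1/2/3 (7319 to 7498) and uch1/2 (6697 to 6885). They lay below it in INO80FL (6173 to 6177), INO80C (5740 to 6252) and the libraries labelled arp5 (5839 to 6144). The 8 dividing-cell markers in long days ran from 3375 to 3426 in wild type, from 3770.3 to 3875 in ino80, 3741 to 3758 in uch1/2 and 2762 to 2889.9 in INO80N. In the second set the 10 root markers summed to 3715 to 3870.1 in wild type and 4344 to 6274 in the 4 mutants. The 10 seed markers, 3 of them at 0 in all wild-type libraries, summed to at most 61.2 in wild type and reached 2355, 4603 and 1070 (1069.7) in the lines of the 3 settings. Duplicate libraries could differ widely, as in ino80 in short days of the first set (6.03 and 1474). In nfrkb1/2/3 the sum ran from 13.4 to 18.7 in long days and from 4.67 to 8.21 in short days of the first set. The part of these tissues in the EMF1 and CLF values was not tested.

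LHP1, the chromodomain protein that binds H3K27me3, was called only in INO80C in long days (405 and 390.3 against 369.8 and 307 in wild type, 0.24, SE 0.087, adjusted p = 0.0454). Without the lower wild-type library that difference was 0.10 (adjusted p = 0.514), and it was also lost without either INO80C library (0.184 and 0.0989). Its largest difference was in nfrkb1/2/3 in the second set, with 353 and 366 against 439 and 451 (−0.31, adjusted p = 0.0534), which did not pass.

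The transgenic lines ask which part of INO80 is needed. Against ino80, 7 of 30 comparisons passed in long days, 2 higher and 5 lower, where 25.7% of all passed (14% higher, 11.8% lower), and 4 of 30 in short days of the first set, 3 higher and 1 lower, where 15.4% passed (8.02% higher, 7.4% lower). With INO80FL, EMF1 rose against ino80 in both day lengths (0.30 in long days, adjusted p = 0.0032, and 0.48 in short days, 3.89e-05). CLF fell by 0.27 in long days (0.01) and by 0.30 in short days (0.00626), so both moved towards the wild-type level. VRN2 rose (0.21, 0.021) and VRN5 fell (−0.27, 0.0289) in long days alone. Under equal library totals, the long-day EMF1 (0.175, adjusted p = 0.0625) and VRN2 (0.0829, 0.415) differences did not pass, and the short-day EMF1 and both CLF calls were kept. The short-day EMF1 difference passed without any single library. The other 5 INO80FL calls were each lost without at least 1 library, in long days EMF1 and CLF without INO80FL replicate 1 (0.22 and −0.16). None of the 10 genes passed between INO80FL and ino80 in the second set, where 10.9% of all genes did, and EMF1 differed by 0.15 (95% interval −0.03 to 0.32).

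With the part-length transgenes, EMF1 rose against ino80 in short days, by 0.34 in INO80N (adjusted p = 0.0041) and 0.29 in INO80C (0.0213). In long days it did not pass (0.15 in INO80N, and 0.00 in INO80C). Each short-day call was lost without ino80 replicate 1 (0.0825 and 0.235) or without a library of the line itself. In long days CLF (−0.30, 0.00813) and MSI1 (−0.22, 0.0297) were lower in INO80C than in ino80, and VRN5 (−0.34, 0.00809) was lower in INO80N. The CLF and VRN5 calls were lost without ino80 replicate 2 (0.0815 and 0.107), that of VRN5 also without INO80N replicate 1 (0.0706), and the MSI1 call without any single library. The long-day total fell to 1 without ino80 replicate 2 and to 3 without INO80FL replicate 1, and the short-day total to 2 without ino80 replicate 1. Between INO80N and INO80C none of 20 comparisons passed, where 13.4% of all did. CLF in long days came nearest, with 478 and 535 in INO80N against 444 and 438 in INO80C (0.20, adjusted p = 0.087, 95% interval 0.03 to 0.36). EMF1 differed between them by 0.15 in long days (95% interval 0.00 to 0.31) and 0.05 in short days (−0.10 to 0.21). A p that misses the threshold does not show that the parts act alike.

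Short-day and long-day seedlings of a genotype were compared next. Within the first set, 30 of 90 gene-by-genotype comparisons passed between short and long days, where 33.8% of all passed, and 28 of the 30 were higher in short days, where 16.7% of all comparisons were higher and 17.1% lower. EMF1 rose in 8 of 9 genotypes, from 0.20 in uch1/2 to 0.43 in INO80C and in the libraries labelled arp5, and in wild type by 0.33 (adjusted p = 0.00105). In ino80 it differed by 0.14 (adjusted p = 0.162). VRN5 rose in 6 genotypes (0.32 to 0.47), with wild type at 297 and 327 in long days and 390.3 and 386 in short days (adjusted p = 0.00789), a call lost without replicate 1 of long-day wild type (0.25, 0.0995). SWN rose in 7 (0.14 to 0.36), and wild type, at 0.05, was not among them. MSI1 rose in 5 (0.21 to 0.29), each lost without at least 1 library. EMF2 rose in nfrkb1/2/3 (0.22) and VRN2 in uch1/2 (0.20). CLF fell in wild type (−0.22, adjusted p = 0.0314) and in the libraries labelled arp5 (−0.22, 0.0368). Under equal library totals, CLF was no longer called lower in any genotype and EMF1 was called higher in all 9. Without any single library of the comparison, 4 of the 8 EMF1 calls, 4 of the 7 SWN calls and neither CLF call held. The samples differed in age and clock phase as well as day length, and the 3 cannot be told apart.

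**Figure D3:**
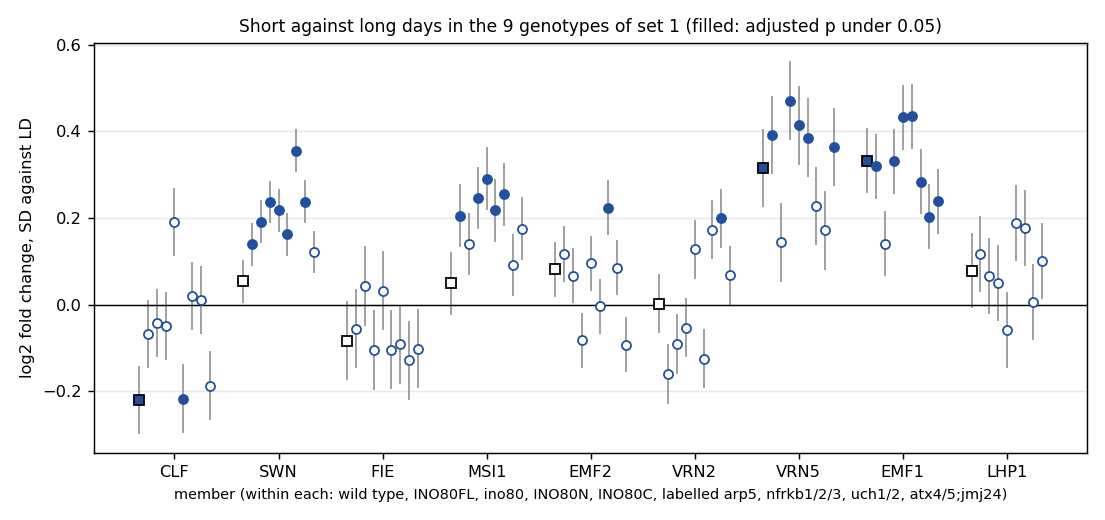
Log2 difference between short and long days of the Polycomb group genes in each of the 9 genotypes of the first set, with bars of 1 SE, a square for wild type and filled symbols for an adjusted p under 0.05; VIN3 is left out. EMF1, VRN5, SWN and MSI1 lie mostly above 0, and CLF is called below 0 in wild type and in the libraries labelled arp5, calls that are lost with library totals set equal.

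The effect of a line differed between day lengths in 2 of 80 comparisons, both higher in short days, where 6.16% of all did (2.7% higher). For CLF the INO80C effect was −0.05 in long and 0.36 in short days, a difference of 0.41 (SE 0.112, adjusted p = 0.018). For SWN the nfrkb1/2/3 effect was −0.28 in long days and 0.03 in short days, a difference of 0.30 (SE 0.0698, adjusted p = 0.0115). For EMF1 no difference between day lengths passed in any of 8 lines (−0.19 to 0.10), so the larger short-day EMF1 differences of ino80 and uch1/2 are not shown to exceed the long-day ones.

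Of 25 other Polycomb proteins and partners, RING1B, BMI1A and RING1A, which encode RING-finger proteins of Polycomb repressive complex 1, were most often among the 3 largest calls of a comparison. AT3G23060, a listed locus to which the RefSeq table gives no name, was higher in INO80N by 3.53 in long and 2.85 in short days, the second lost without short-day wild-type replicate 2 (adjusted p = 0.0952) or INO80N replicate 1 (0.0724). The list gave 45 calls of 200 in long days (15 higher, 30 lower), 54 of 200 in short days of the first set (8 higher, 46 lower) and 11 of 125 in the second set (2 higher, 9 lower), beside the 19.7%, 25.9% and 12.2% of all genes. Its median log2 difference lay between −0.08 and 0.08 in long days, −0.19 and −0.05 in short days and −0.05 and 0.00 in the second set, where all genes had a median of 0.00. Under equal library totals, the short-day split turned to 34 higher and 17 lower and the long-day split to 33 and 16, so the direction of the list depends on the scaling.

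RING1B (AT1G03770, chromosome 1) was lower in 15 of 21 comparisons, and all 15 held with library totals set equal. In long days wild type held 139 and 147 normalized reads and ino80 68.2 and 74.7 (50.0% of wild type, log2 difference −0.99, SE 0.195, adjusted p = 4.41e-04). In short days the ino80 libraries held 55.5 and 65.7 against 139 and 106 in the first set (−0.99) and 41.9 and 43.7 against 89.0 and 81.2 in the second (−0.97, adjusted p = 0.00635). The same 6 lines were called in long and short days of the first set: ino80, nfrkb1/2/3, uch1/2, INO80N, INO80C and the libraries labelled arp5. Of these, ino80, nfrkb1/2/3 and uch1/2 were in the second set and were called there too. INO80N in short days was lowest in the first set, at 39.4 and 32.3 (−1.74), and uch1/2 in the second, at 30.4 and 24.5 (−1.60). INO80FL and atx4/5;jmj24 were not called in any. The call of INO80C in short days and that of nfrkb1/2/3 in the second set were each lost without at least 1 library. RING1B overlaps AT1G03780 on the other strand, which was higher only in the libraries labelled arp5 in short days (0.48).

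BMI1A (AT2G30580, chromosome 2, DRIP2 in RefSeq) was lower in 15 of 21 comparisons, in the same lines, and 14 held with library totals set equal. In ino80 it stood at 126 and 136 against 178 and 206 in wild type in long days (−0.54), at 93.5 and 80.5 against 188 and 182 in short days (−1.08) and at 77.9 and 76.5 against 152 and 156 in the second set (−0.99). Both INO80C calls and the long-day ino80 call were lost without at least 1 library. Its relative BMI1B was lower in 2 long-day comparisons, each lost without at least 1 library, and in none in short days.

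RING1A (AT5G44280, chromosome 5), the paralogue of RING1B, went the other way and was higher in 9 of 21 comparisons, all of which held with library totals set equal. In long days it held 178 and 173 in wild type, 238 and 242 in ino80 (0.45, adjusted p = 0.00428) and 309 and 256 in INO80N (0.68, 8.5e-05). In short days INO80C stood highest, at 250.2 and 265 against 164 and 155 (0.69). The calls of the libraries labelled arp5 in long days, of nfrkb1/2/3 in short days and of ino80 and nfrkb1/2/3 in the second set were each lost without at least 1 library. RING1B was higher in INO80FL than in ino80 in long days and in short days of both sets (0.92, 0.80 and 1.13), and so was BMI1A (0.52, 0.88 and 1.01). RING1A fell in INO80FL against ino80 in long days (−0.33) and in the second set (−0.71).

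**Figure D4:**
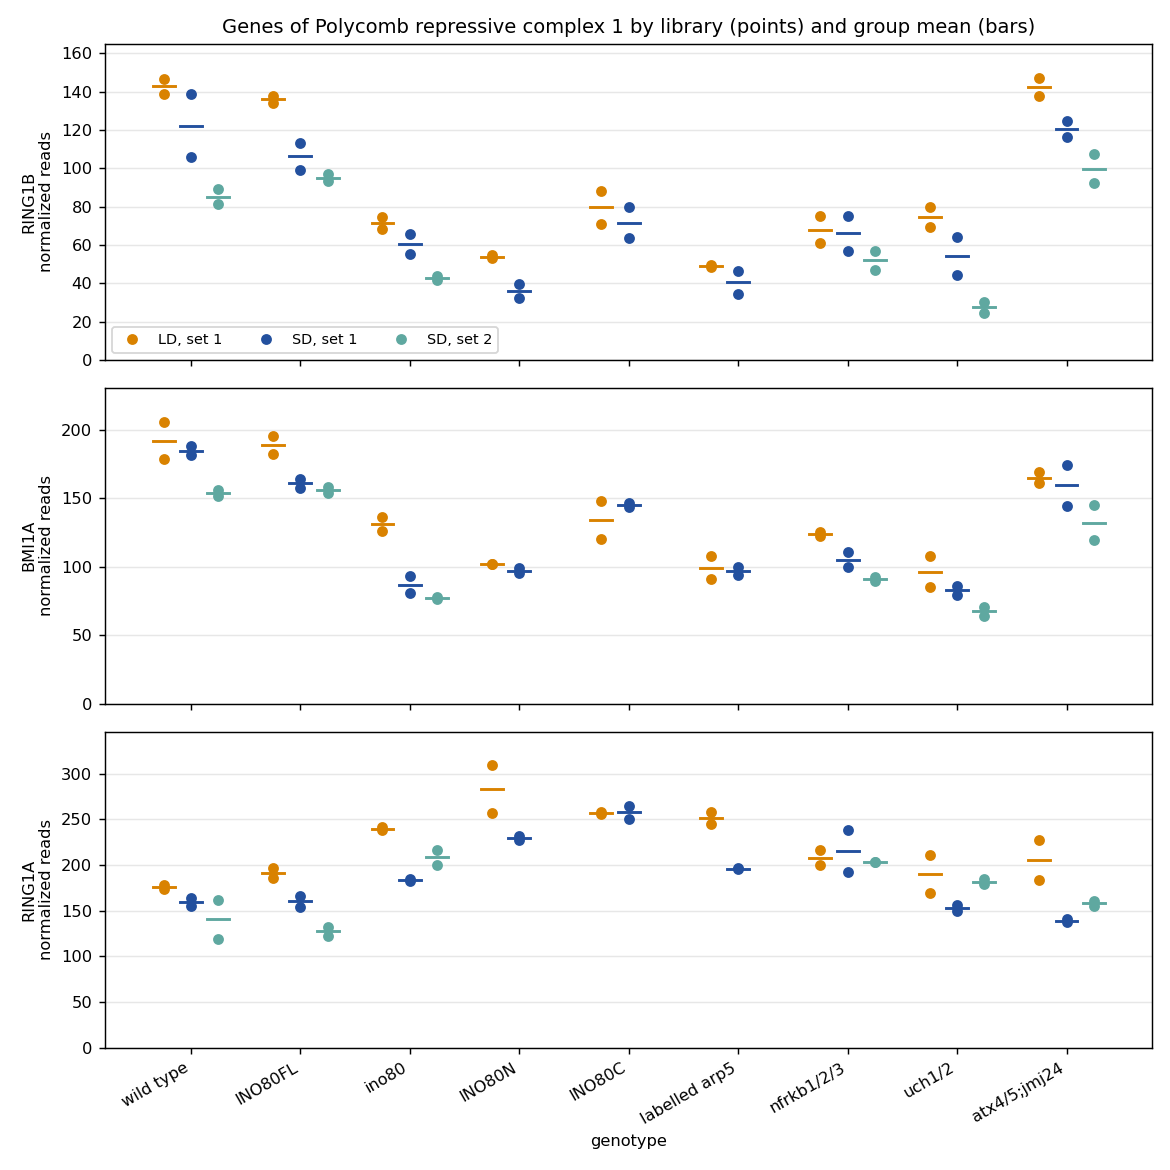
Normalized reads of RING1B, BMI1A and RING1A in each of the 48 libraries, by genotype (horizontal axis) and by day length and set (colours), with 1 point per library and a bar at each group's mean. RING1B and BMI1A lie below wild type in ino80 and uch1/2 in all 3 settings, and RING1A lies above it in long-day INO80N.

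Among the rest of the list, MSI4, a WD-repeat relative of MSI1 that represses FLC, was lower in 4, 7 and 3 comparisons (−0.35 at most in size), of which 2, 1 and 0 held with library totals set equal and 1, 7 and 0 without any single library. UBP13, a deubiquitinase that acts on histone H2A, was called lower in 5 of 8 lines in short days of the first set and higher in 2 in long days. None of the 5 lower calls held with library totals set equal, 1 held with quantile normalization, and the differences of nfrkb1/2/3 and uch1/2 changed sign with equal totals. TRB2, a telomere-repeat-binding protein that recruits Polycomb repressive complex 2, was lower in INO80C in short days (−0.41).

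A fixed list of 10 genes was taken as countering Polycomb repression, a role not tested here for any of them. Of its comparisons, 13 of 80 passed in long days (2 higher, 11 lower), 24 of 80 in short days of the first set (all lower) and 5 of 50 in the second (all lower), beside the 19.7%, 25.9% and 12.2% of all genes. Under equal library totals these became 6 higher and 4 lower in long days, 2 higher and 8 lower in short days and 2 lower in the second set, so in long days the balance of the list depends on the scaling. With the values as deposited, the 2 higher long-day calls were those of JMJ30, in INO80N and INO80C, and both held with equal totals. JMJ30 was lower in ino80 in short days of the first set, a call lost with equal totals. Each JMJ30 call was lost without at least 1 library. PKL, a CHD3-type remodeler, was lower in 6, 7 and 3 comparisons (−0.42 at most in size), of which 2, 4 and 2 held with library totals set equal. PKL alone gave 6 of the 11, 7 of the 24 and 3 of the 5 lower calls of the list. ULT1, a trithorax-type SAND-domain protein, was lower in 2 lines in long days and 4 in short days of the first set, in ino80 with 115 against 208 normalized reads (−0.85). Under equal library totals 1 of the 2 and 3 of the 4 held, and without any single library 0 and 3. REF6, an H3K27 demethylase, was called once, in atx4/5;jmj24 in short days of the first set (−0.21), and that call was lost with equal totals, with quantile normalization and without 3 of the 4 single libraries (adjusted p of 0.132 to 0.299).

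Of 25 textbook targets of the H3K27me3 mark, 23 were tested in the first set and 24 in the second, and 47 of 184 comparisons passed in long days (33 higher, 14 lower), 43 of 184 in short days (37 higher, 6 lower) and 20 of 120 in the second set (17 higher, 3 lower), beside the 19.7%, 25.9% and 12.2% of all genes. Under equal library totals the split was 40 higher and 12 lower, 53 and 3, and 18 and 2. Calls over all genes also leaned upward under that scaling. They were 31825 higher and 15353 lower in long days, 46238 and 15716 in short days and 11316 and 5173 in the second set. The split under equal totals is therefore not a trend of the targets alone. With the values as deposited, the median log2 difference of the targets by line was 0.16 to 0.75 in long days, −0.15 to 0.72 in short days and −0.03 to 0.37 in the second set. The B-class floral gene PI was higher in 7 of 8 lines in each day length of the first set and in 3 of 5 in the second. In ino80 it stood at 47.8 against 8.79 in long days (2.35) and at 86.5, or 863% of wild type, in short days (2.99). SEP3, a floral organ identity factor, was higher in 5, 6 and 4 comparisons. In short days it stood at 176 in ino80 against 23.7 in wild type (2.84). The C-class gene AG was higher in 4, 4 and 2 comparisons, each lost without at least 1 library, as in ino80 in long days (2.21), where the difference was 1.16 (adjusted p = 0.208) without wild-type replicate 2. MAF5, a relative of the flowering repressor FLC, was higher in 6, 5 and 3. It was called lower than wild type in INO80FL in short days of both sets. In each setting, some MAF5 calls were lost without at least 1 library. Without any single library, all 14 PI calls of the first set and 2 of 3 of the second held, as did 3, 6 and 3 of those of SEP3. FLC itself passed in none (−1.44 to 1.06). Other targets went down. FUL was lower in 4 lines in long days and 1 in short days of the first set. AGL19 was lower in 3 lines in long days and higher in 2 in short days. DOG1 was lower in atx4/5;jmj24 in all 3 comparisons and in nfrkb1/2/3 in the second set. It was higher in INO80N in long days and in the libraries labelled arp5 in both day lengths. Several of these calls, though not those of AGL19 in long days, were lost without at least 1 library. The mark itself and the proteins were not measured here, and no relation between the levels of the Polycomb genes and these targets was tested.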

How the data were processed

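RNA sequencing libraries (50 bp single-ended reads) of Arabidopsis seedlings were aligned with HISAT2 2.2.0 to TAIR10 and normalized with edgeR, per the submitters' processing notes; the counter, annotation version and strand setting are not given in the sources used here. The deposited values are a normalized read signal per gene, in a table for each of 2 sets that the authors normalized apart. Whole reads could not be recovered (77.1% to 100% of low values per library lay within 0.1 of a multiple of that library's step), so no count model was used, and limma stood in for the count test planned for raw counts.

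In R 4.3.3, limma 3.58.1 with a mean-variance trend was fitted to log2(value + 1), so that fold changes of low genes are understated. Genes reaching 1 in 2 or more libraries of a set entered (25638 and 24458), all groups of a set entered 1 fit (18 and 6 residual degrees of freedom), and p-values were adjusted by Benjamini-Hochberg within each comparison and called under 0.05. Each group has 2 libraries, which limits the precision. The code was tested on simulated data. Exon lengths, overlaps and names came from the RefSeq table of TAIR10.1. 

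Values per library are given for members called in at least 3 comparisons with wild type or in both sets for the same line. List genes are named from the 3 largest calls of a comparison with a mean of at least 10; FLC and the overlapping genes were added after their values were seen. The members and lists were chosen with earlier results of these data known. Alternatives were other pseudocounts, filters and scalings, no trend, fits of only the groups compared, a replicate block, each library left out in turn and, chosen after seeing the data, the libraries labelled arp5 left out.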

Additional observations from a re-analysis of the deposited data

Results flagged for a closer look

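Lines whose effect on a member differed between day lengths are given here; no explanation was tested. The effect of INO80C on CLF, against wild type, was larger in short than in long days by 0.41 on the log2 scale (SE 0.112, adjusted p = 0.018, limma). The INO80C libraries held 444 and 438 normalized reads of CLF in long days, where wild type held 449 and 466, and 477 and 531 in short days, where wild type held 377 and 409. The difference was lost without long-day wild-type replicate 2 (0.38, adjusted p = 0.067), long-day INO80C replicate 2 (0.40, 0.051), short-day wild-type replicate 1 (0.35, 0.0771) or short-day INO80C replicate 2 (0.33, 0.107).

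The effect of nfrkb1/2/3 on SWN was higher in short than in long days by 0.30 (SE 0.0698, adjusted p = 0.0115, limma). The nfrkb1/2/3 libraries held 823 and 818 in long days, where wild type held 961 and 1027, and 1064 and 1036 in short days, where wild type held 1006 and 1057. The difference was lost without long-day wild-type replicate 2 (0.25, adjusted p = 0.0745), short-day wild-type replicate 1 (0.27, 0.0565) or short-day nfrkb1/2/3 replicate 1 (0.28, 0.0528).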

How the results depend on the processing

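Of the 78 calls of members, 78 kept their direction and threshold under the other pseudocounts and filters and under the replicate block, 73 without the trend, 69 with quantile normalization, 59 with equal library totals and 16 with only the groups compared, which leaves few degrees of freedom. None reversed. The numbers of calls that moved by more than 1.5 times are these. With only the groups compared, 1 passed in long days, 7 and 0 in short days of the first and second set, 1 and 0 for transgenic lines against ino80 in long and short days, 9 for short against long days and 0 for the line effect between day lengths. With equal library totals, 30 passed in short days of the first set (26 higher, 4 lower, against 6 and 7), 1 in the second set, 3 for INO80N against INO80C and 6 for the line effect between day lengths; long days gave 16 (10 higher, 6 lower, against 4 and 16). Quantile normalization gave 5 for the line effect between day lengths, 6 higher and 13 lower in long days and 8 higher and 5 lower in short days. The filter at 10 gave 4 in the second set, and no trend gave 1.

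Leaving out each library in turn gave 13 to 20 calls in long days (13 without either wild-type library), 9 to 13 in short days of the first set, 0 to 2 in the second (0 without wild-type replicate 4), 1 to 7 and 2 to 4 for transgenic lines against ino80 in long and short days, 0 to 0 for INO80FL against ino80 in the second set, 0 to 0 for INO80N against INO80C, 27 to 31 for short against long days and 0 to 2 for the line effect between day lengths. Single members' calls held in 198 of 320 such fits. With equal library totals UBP13 turned to 0.0397 in nfrkb1/2/3 and 0.0169 in uch1/2 in short days of the first set. The cause of these changes was not tested.

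The replicate numbers were not treated as pairs, since nothing says what they share. Same-numbered libraries deviated together with a median r of 0.0120 (−0.415 to 0.352; 27 of 153 pairs of groups over 0.1) in the first set and 0.270 (−0.190 to 0.454; 10 of 15) in the second. With the replicate block, 4 comparisons passed in the second set and 1 for INO80N against INO80C; the other counts stayed within 1.5 times.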

Other observations

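Over the 18 group means of the first set, the genes whose log2 level was most like that of EMF1, a member picked for this after its values were seen, were AT4G32190 (Pearson r = 0.954), AT1G11280 (0.948), ARR15 (0.946), SRFR1 (0.945) and AT3G26720 (0.943). Over the 6 group means of the second set the same genes had r of 0.894, 0.895, 0.599, 0.685 and 0.649. For CLF, picked likewise, the nearest were AT4G24710 (0.858), XIA (0.856) and QUL1 (0.851), with 0.0406, 0.0304 and 0.773 in the second set. VIN3, whose group means ranged most widely on the log2 scale because it lies near 0, had its nearest gene, AT1G32930, at 0.722 (−0.113 in the second set). These are descriptions over groups that share their libraries and, within a day length, age and harvest.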
